A study of Mus musculus with 7 samples.

Results

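A set of 5 small RNAs whose names belong to the miR-7200 series was listed in 7 small RNA libraries of mouse testis, and their levels across the libraries, their sequences and their genomic positions are described here. The 5 members were selected by name, as every entry called miR-72 followed by 2 digits, among 331 miRNAs listed in the table of the series. They are mmu-miR-7210-5p, mmu-miR-7229-5p, mmu-miR-7214-5p, mmu-miR-7230-5p and mmu-miR-7217-3p. The RefSeq annotation holds 57 mature sequences and 32 precursors with such names. Most of the series was thus not listed, and the members do not stand for the series as a whole. The name was chosen because members were already known to be higher in the more differentiated samples, so the comparisons of adult or cultured testis with prepuberal testis describe the members and support nothing. The sequence features, the genomic positions and the comparison of the culture media were not used in that choice.

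All libraries came from testes of CD1 mice, an outbred stock, with 1 library per condition. T6 and T10 were prepared from testes at 6.5 and 10.5 days postpartum (dpp) before culture, for which the sample labels give ages of 6 and 10 days. T6-12K and T6-12A came from 6.5 dpp testes, and T10-12K and T10-12A from 10.5 dpp testes, cultured for 12 days on agarose at the gas-liquid interface, at 34 °C under 5% CO2 and 95% air. K marks medium with KSR, a serum replacement, and A marks medium with AlbuMAX I, a lipid-rich bovine serum albumin. TAD was adult testis, at 2 months of age. Every sample was whole testis tissue, so a larger share of cells of one type and more RNA per cell cannot be told apart. No condition had a replicate, so no difference between conditions was tested, and every interval below is a 95% interval for counting error only.

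A miRNA is cut from a folded precursor, the hairpin, whose 5′ and 3′ arms can each give a mature strand. The mature strand pairs with messenger RNAs mainly through its seed, bases 2 to 8, and represses them. Germ cells of the testis also make piRNAs, which are longer, are not cut from hairpins, often begin with U and silence transposable elements. The functions of the miR-7200-series members are not described here because no source used here gives them. Whether their reads came from miRNAs or from other small RNAs was not tested.

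The mature sequences of 4 members were found in RefSeq (GRCm38.p6) and are shown because they identify what was counted. The seed is in capitals.
miR-7210-5p: uAACAUUGuagacaggcacaaag
miR-7229-5p: uAGUAGACaucccuggauagc
miR-7230-5p: aGACUGCUguuucucugaguggc
miR-7217-3p: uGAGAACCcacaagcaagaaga
The fifth member is miR-7214-5p. The 4 sequences were 23, 21, 23 and 22 nt long in the order shown, against a median of 22 nt over 284 other listed miRNAs. Of the 4, 3 began with U, as did 48.6% of the 284 others. The seeds of these 4 differed from one another. The seeds of miR-7210-5p and miR-7230-5p were found in no other mature sequence of the table, whereas miR-7229-5p had the same seed as miR-411-5p, also listed. miR-7217-3p shared bases 2 to 7 with miR-146a-5p and miR-146b-5p, which are known for their part in inflammatory signalling.

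The libraries held between 1628770 reads on listed miRNAs in TAD and 13397406 in T10, and TAD was therefore the least precise for low values. Levels are given as reads and as CPM, counts scaled so that the listed miRNAs of each library have the same total. The lowest value listed above 0 was 5 reads. Ratios to a value at 0 were computed against 5 reads and are lower bounds. miR-10b-5p took between 31.2% of the miRNA reads in TAD and 54.4% in T6-12K. The summed level of 3 male germ cell markers (miR-34b-5p, miR-34c-5p and miR-449a-5p) was 71.8 CPM in T6, 158 in T10, between 593 and 1918 in the cultured libraries and 25222 in TAD, and none of the 3 was at 0 in any library. Their part in the levels of the members was not tested.

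miR-7210-5p was by far the most abundant member. It had 5 reads in T6 and 23 in T10, which are 0.374 CPM (interval 0.121 to 0.873) and 1.72 CPM (1.09 to 2.58). In culture it had 3403, 8771, 7585 and 7142 reads (T6-12K, T6-12A, T10-12K, T10-12A), or 343, 813, 1072 and 845 CPM. In TAD it had 14626 reads, 8980 CPM, and ranked 14 among the 331 miRNAs, against 323 in T6 and 320 in T10. The 3 groups of libraries did not overlap: both prepuberal libraries lay below all cultured ones, and TAD lay above them. This order was found in 5.14% of the 331 listed miRNAs.

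No read of miR-7229-5p was listed in either prepuberal library. Its counts in T6-12K, T6-12A, T10-12K and T10-12A were 213, 414, 447 and 471 reads, or 21.4, 38.4, 63.2 and 55.7 CPM, and 1043 reads in TAD, 640 CPM. The order of the groups was that of miR-7210-5p, at a lower level. Of the reads on the 5 members, miR-7210-5p took between 92.4% and 94.9% in the cultured and adult libraries, and miR-7229-5p between 4.48% and 6.59%.

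The other members were rare. miR-7214-5p had no listed read before culture, 19, 41, 16 and 33 reads in T6-12K, T6-12A, T10-12K and T10-12A, and 84 in TAD, where its level was 51.6 CPM (41.1 to 63.9). miR-7230-5p was also listed at 0 before culture and had 16, 5, 22 and 44 reads in the same cultured libraries and 52 in TAD, 31.9 CPM (23.8 to 41.9). miR-7217-3p was listed at 0 in T6, T10, T6-12K and T10-12K, had 10 reads in T6-12A and 6 in T10-12A, and 24 in TAD, 14.7 CPM (9.44 to 21.9). It was thus listed above 0 in cultured testis with AlbuMAX I and at 0 with KSR, at counts of at most 10 reads, close to the lowest number of reads listed. In TAD miR-7214-5p had 1.62 reads for each read of miR-7230-5p (1.13 to 2.33), and miR-7230-5p had 2.17 for each read of miR-7217-3p (1.31 to 3.68).

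**Figure D1:**
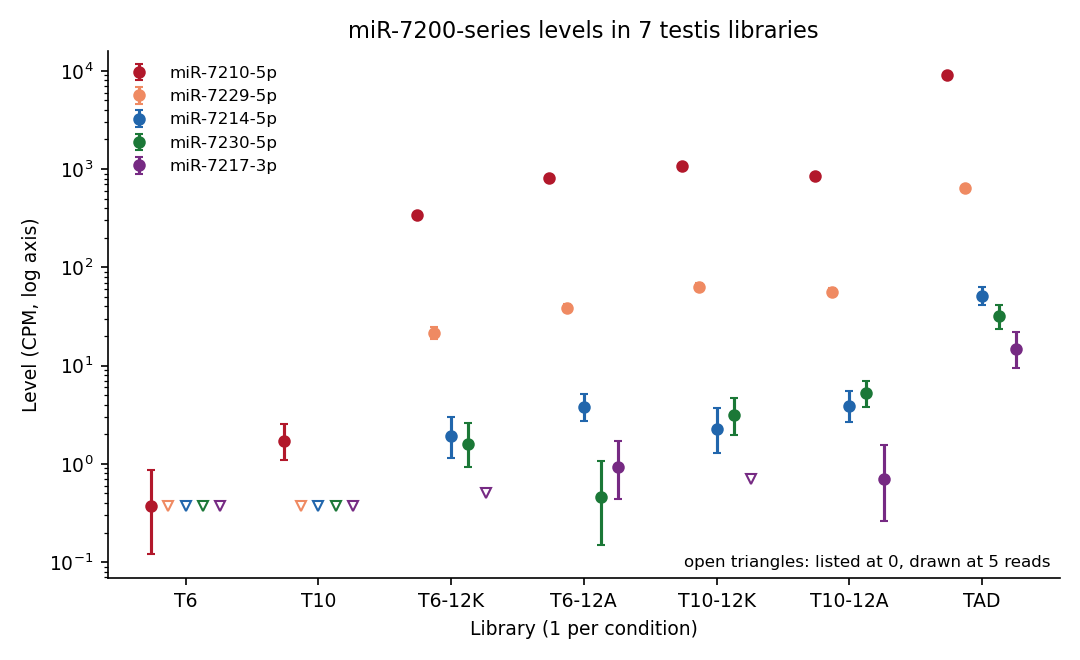
Level of each member in CPM (log axis) in the 7 libraries, 1 point per library with a 95% counting interval as the bar; open triangles mark values listed at 0, drawn at 5 reads. miR-7210-5p lies at 0.374 CPM in T6, between 343 and 1072 CPM in culture and at 8980 CPM in TAD, and the other members lie below it in every library where they are above 0.

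The first comparison asked how the adult testis differed from the prepuberal testis. The CPM of miR-7210-5p in TAD was 8589 times its mean over T6 and T10, a log2 ratio of 13.07 (12.54 to 13.66). This ratio rests on few prepuberal reads: it was 12.35 on the log2 scale without T6 and 14.55 without T10. miR-7229-5p was at least 1714-fold higher in TAD, miR-7214-5p at least 138-fold, miR-7230-5p at least 85.4-fold and miR-7217-3p at least 39.4-fold. All 5 members were at least 2-fold higher, as were 21.5% of the 331 listed miRNAs. The members other than miR-7210-5p were at 0 in both prepuberal libraries, so they were listed only through libraries where they were higher. Since 5 reads are 0.374 CPM in T6 and 3.07 CPM in TAD, any listed TAD value passes 2-fold against such a 0. Their calls were set in advance and support nothing. The median log2 ratio was 7.11 over the members, with bounds taken as values, and -0.41 over all listed miRNAs. In that order miR-7210-5p and miR-7229-5p ranked 1 and 2 of 331, and the remaining members ranked 8, 12 and 13. Of 7 male germ cell miRNAs in the list, from the miR-34b, miR-34c and miR-449 precursors, 6 were in the table, and these were all at least 2-fold higher in TAD as well, with a median log2 ratio of 7.79.

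**Figure D2:**
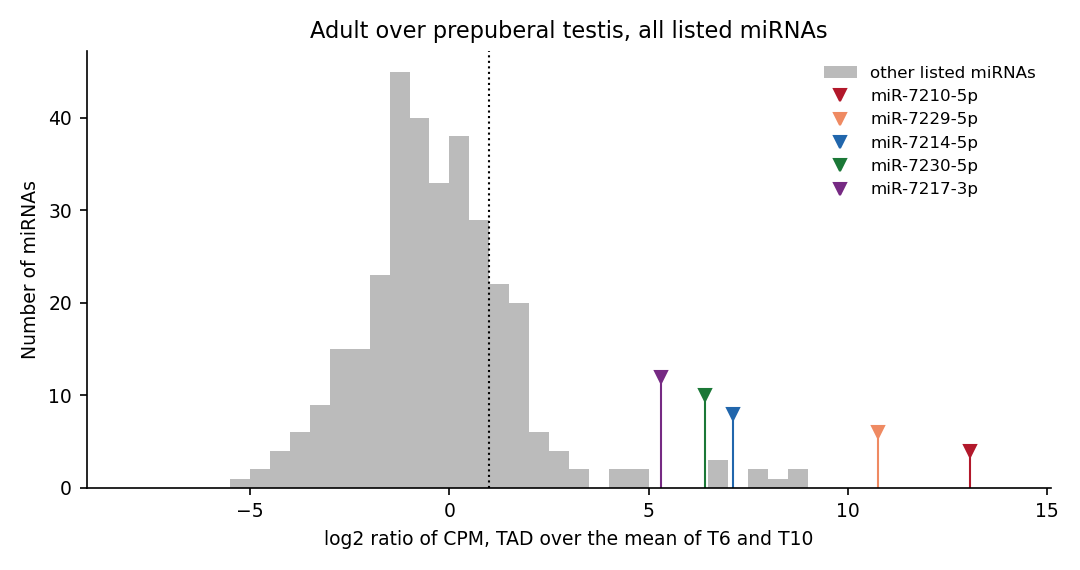
Distribution over listed miRNAs of the log2 ratio of CPM in TAD over the mean of T6 and T10; bars count the other listed miRNAs, coloured markers are the 5 members (all but miR-7210-5p are lower bounds) and the dotted line is a 2-fold ratio. The members lie between 5.30 and 13.07, while the median of all listed miRNAs is -0.41.

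Each cultured testis was then compared with its own starting age. In T6-12K over T6, miR-7210-5p had a log2 ratio of 9.84 (8.61 to 11.46), and miR-7229-5p was at least 57.3-fold higher. All 4 members with a ratio were at least 2-fold higher, against 10.9% of 329 miRNAs. In T6-12A over T6 the log2 ratio of miR-7210-5p was 11.08 (9.86 to 12.71), and again 4 of 4 members were past 2-fold, against 12.5% of all. T10-12K over T10 gave 9.29 (8.70 to 9.94) for miR-7210-5p and 4 of 4 members, against 8.21%. T10-12A over T10 gave 8.94 (8.36 to 9.60), and 4 of 5 members passed, against 10.6%. The exception, miR-7217-3p, was at least 1.90-fold higher there. It had no ratio in the comparisons with KSR, where it was at 0 on both sides. miR-7230-5p had none in T6-12A over T6, with 5 reads against 0. Members at 0 before culture had a ratio only where culture held more than 5 reads, so these counts lean toward a rise by construction. T6-12K and T6-12A share T6, and T10-12K and T10-12A share T10, so these comparisons are not separate evidence. Between the uncultured libraries a ratio could be given only for miR-7210-5p, whose log2 ratio of T10 over T6 was 2.20 (0.77 to 3.95), past 2-fold as were 11.0% of 326 miRNAs.

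By CPM, cultured testis stayed below adult testis in every member. In TAD over the highest cultured library, miR-7210-5p was 8.38-fold higher, miR-7229-5p 10.1-fold, miR-7214-5p 13.2-fold, miR-7230-5p 6.13-fold and miR-7217-3p 15.9-fold. All 5 members were thus past 2-fold, against 24.6% of 325 miRNAs. These folds depend on the scaling: the log2 ratio of miR-7210-5p, 3.07 by CPM, was 2.48 with the trimmed mean of M-values and 0.74 with reads compared as if all libraries were equally deep, and that of miR-7229-5p, 3.34 by CPM, was 2.75 and 1.15. At equal depth 3 of 5 members were past 2-fold, against 13 of 325 miRNAs. The order of both prepuberal libraries below all 4 cultured ones, and these below TAD, was found in 4 of 5 members and in 5.14% of all 331 miRNAs. The exception was miR-7217-3p, which was listed at 0 in prepuberal and KSR libraries alike. The order of miR-7230-5p rests on 5 reads in T6-12A, 0.463 CPM (0.150 to 1.08), against 0 in T6 and T10. For that pair no ratio was given, so its separation there is not clear. The 17 miRNAs in this order comprised the 4 members, all 6 male germ cell miRNAs in the table, and miR-375-3p, miR-29a-3p, miR-29c-3p, miR-191-5p, miR-143-3p, miR-6412 and miR-468-5p. Of these, miR-29c-3p, miR-6412 and miR-468-5p are named because of their values.

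Relative to the adult level, the 2 abundant members were of the same order as the 3 reference miRNAs in culture. Before culture miR-7210-5p lay far below the references, and miR-7229-5p was listed at 0. miR-7210-5p stood at 3.81%, 9.05%, 11.9% and 9.41% of its TAD level in T6-12K, T6-12A, T10-12K and T10-12A, and miR-7229-5p at 3.35%, 5.99%, 9.87% and 8.70%. miR-34c-5p, a miRNA of meiotic and later male germ cells, stood at 2.52%, 5.84%, 7.78% and 7.08% in the same libraries. There miR-449a-5p stood at 1.67%, 6.00%, 7.52% and 8.07%, and miR-375-3p at 2.33%, 5.05%, 8.63% and 6.12%. Before culture, miR-34c-5p was at 0.293% of its TAD level in T6 and 0.694% in T10, and miR-7210-5p at 0.00417% and 0.0191%. In T6 and T10 miR-449a-5p was at 0.289% and 0.218%, and miR-375-3p at 1.11% and 0.961%. For each read of miR-34c-5p, miR-7210-5p had 0.00624 reads in T6 and 0.0121 in T10, between 0.585 and 0.681 in culture and 0.440 in TAD. This ratio is free of the scaling between libraries, since both counts come from the same library.

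**Figure D3:**
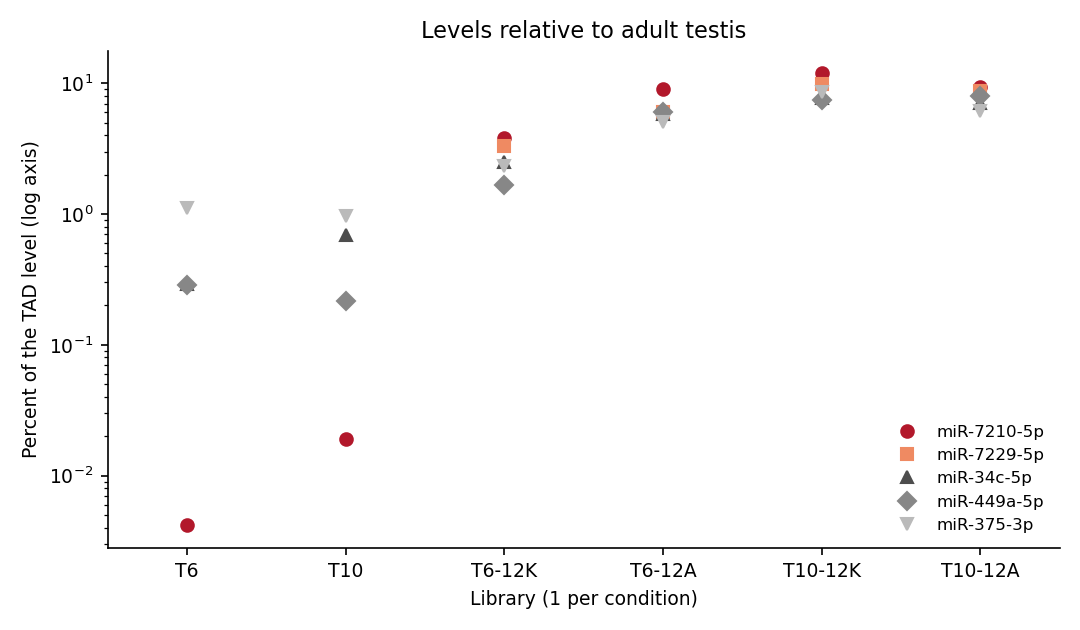
CPM as a percent of the TAD level (log axis) in the 6 other libraries, 1 point per library, for miR-7210-5p, miR-7229-5p (not drawn where listed at 0) and the references miR-34c-5p, miR-449a-5p and miR-375-3p. In T6 miR-7210-5p is at 0.00417% and miR-34c-5p at 0.293%, and in T10-12A they are at 9.41% and 7.08%.

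The ratio between the 2 abundant members was of the same order in the 5 libraries that held both. miR-7210-5p had 16.0 reads for each read of miR-7229-5p with T6-12K (13.9 to 18.4), 21.2 with T6-12A (19.2 to 23.4), 17.0 with T10-12K (15.4 to 18.7), 15.2 with T10-12A (13.8 to 16.7) and 14.0 in TAD (13.2 to 14.9). T6-12A was the highest of the 5, and its interval did not overlap those of the others. The pair encoded close together on chromosome 5 was less even: miR-7229-5p had 10.7 reads for each read of miR-7230-5p in T10-12A (7.85 to 14.9) and 82.8 in T6-12A (35.2 to 256), the latter on 5 reads of miR-7230-5p.

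The media were compared at each starting age. The paper describes explants with AlbuMAX I as smaller than those with KSR, and their cells as frequently aberrant in nuclear shape. Its cytology rests on the KSR cultures only. For 6.5 dpp testes, miR-7210-5p was higher with AlbuMAX I than with KSR, by a log2 ratio of 1.25 (1.19 to 1.30), while the median over all miRNAs was 0.64. miR-7229-5p had a log2 ratio of 0.84 (0.60 to 1.08), and miR-7214-5p 0.99 (0.17 to 1.86). miR-7230-5p went the other way, at -1.80 (-3.60 to -0.28), on 5 against 16 reads. One of 5 members was at least 2-fold higher with AlbuMAX I, against 27.4% of 321 miRNAs, and 1 was at least 2-fold lower, against 5.92%. With deposited values, with median-of-ratios size factors or with the trimmed mean of M-values, 0 members were 2-fold higher, against 19.9%, 11.2% and 13.4% of all. For 10.5 dpp testes, miR-7210-5p was slightly lower with AlbuMAX I, at a log2 ratio of -0.34 (-0.39 to -0.30), while the median over all miRNAs was -0.02. The interval of miR-7229-5p spanned 0 (-0.37 to 0.01), as did those of miR-7214-5p (-0.11 to 1.75) and miR-7230-5p (-0.03 to 1.55). No member had a value or bound past 2-fold in either direction, 0 of 5, against 5.68% of 317 miRNAs higher and 5.68% lower. miR-7217-3p, at 0 with KSR, had only lower bounds, at least 1.84-fold at 6.5 dpp and at least 1.00-fold at 10.5 dpp. Whether it was past 2-fold with AlbuMAX I is therefore not known at either age.

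Among 119 other miRNAs averaging 100 CPM or more, the profile of log2(CPM + 1) over the 7 libraries most like that of miR-7210-5p was miR-449a-5p (Pearson r = 0.945), followed by miR-34c-5p (0.939) and miR-29a-3p (0.912). The nearest to miR-7229-5p were miR-449a-5p (0.984), miR-34c-5p (0.974) and miR-34b-5p (0.959). For miR-7214-5p they were miR-375-3p (0.972), miR-34b-5p (0.966) and miR-34c-5p (0.962), and for miR-7230-5p miR-191-5p (0.951), miR-34b-5p (0.944) and miR-375-3p (0.941). miR-7217-3p, with values above 0 in 3 libraries, was nearest to miR-192-5p (0.932), miR-126a-5p (0.925) and miR-126b-3p (0.914), and miR-126a-5p is known from endothelium. These correlations over 7 libraries rest mainly on the gap between the prepuberal, cultured and adult libraries, and the miRNAs compared come from the same libraries. A mean of 100 CPM can also be reached through TAD alone, so the filter itself admits candidates that are high only in the adult. Between members, r was 0.985 for miR-7210-5p with miR-7229-5p and 0.624 for miR-7210-5p with miR-7217-3p.

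The listed miRNAs that share all or part of a member's seed are given for comparison. miR-411-5p, which has the seed of miR-7229-5p, was highest before culture and lowest in the adult. It was at 3087 CPM in T6, 2398 in T10, between 525 and 931 in culture and 279 in TAD, a log2 ratio of adult over prepuberal of -3.30 (-3.43 to -3.17). miR-146a-5p and miR-146b-5p, which share 6 seed bases with miR-7217-3p, were also lowest before culture, at 24.8 and 841 CPM in T6 and 47.9 and 1442 CPM in T10. Unlike miR-7217-3p they were highest in T10-12A, at 478 and 4977 CPM, and stood at 140 and 2181 CPM in TAD, 3.85-fold and 1.91-fold their prepuberal means.

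None of the 5 members had its other arm listed. Of 310 other listed miRNAs with an arm in the name, 142 (45.8%) had the other arm listed as well. Of the 5 members, 4 were 5p arms, as were 167 of the 310 others. miR-7210-5p, listed without its other arm, had 41555 reads over the 7 libraries, and miR-7214-5p, miR-7230-5p and miR-7217-3p had 193, 139 and 40. The paper discarded miRNAs with fewer than 50 reads, yet miR-7217-3p was listed with 40 reads here (89.6 summed over deposited values). On which values that cut was made is not given in the sources used here. An arm rarer than the listed one could be absent because of it. The comparison therefore says little about these rare members.

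The annotated precursors of the members were shorter than most others and weakly folded. Their hairpins are shown with the listed arm in capitals, because the arm lies at the very end of each annotated hairpin.
Mir7210: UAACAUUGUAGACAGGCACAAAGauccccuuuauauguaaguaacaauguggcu
Mir7229: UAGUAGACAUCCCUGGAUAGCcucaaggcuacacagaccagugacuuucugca
Mir7230: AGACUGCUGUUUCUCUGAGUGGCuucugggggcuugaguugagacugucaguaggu
Mir7217: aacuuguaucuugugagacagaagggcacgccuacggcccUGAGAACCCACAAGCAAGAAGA
They were 54, 53, 56 and 62 nt long, and that of Mir7214 61 nt, against a median of 82 nt over 206 other listed precursors. The minimum free energy predicted with RNAfold was -9.1 kcal/mol for Mir7210, and 0 of the 206 others had a weaker fold. It was -14.8 for Mir7229 and -15 for Mir7230, each with 1 of 206 weaker, and -19.4 for Mir7217 and -19.5 for Mir7214, each with 5 of 206 weaker. The median of the others was -35.9 kcal/mol. Per base the energies were -0.169, -0.279, -0.268, -0.313 and -0.320 kcal/mol in the order Mir7210, Mir7229, Mir7230, Mir7217 and Mir7214, against a median of -0.433, with 0, 8, 5, 14 and 15 of 206 weaker. The annotated hairpins of 4 members have no bases beyond the arms, while the median of the other precursors was 23. The folds were therefore also compared over the stretch from the start of the 5p arm to the end of the 3p arm, an alternative chosen after the data had been seen. Over that stretch the median length of the others was 60 nt, and 1, 1, 7 and 131 of 190 were shorter than Mir7210, Mir7229, Mir7230 and Mir7217, so Mir7217 was not short by this measure. In the same sequence 0, 2, 2 and 19 of 190 had a weaker fold. In the predicted folds 69.6% of the bases of miR-7210-5p were paired, 71.4% of miR-7229-5p, 56.5% of miR-7230-5p and 54.5% of miR-7217-3p, against a median of 83.3% and a minimum of 57.1% over 265 other listed miRNAs. A predicted fold does not show whether a hairpin is cut in cells.

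**Figure D4:**
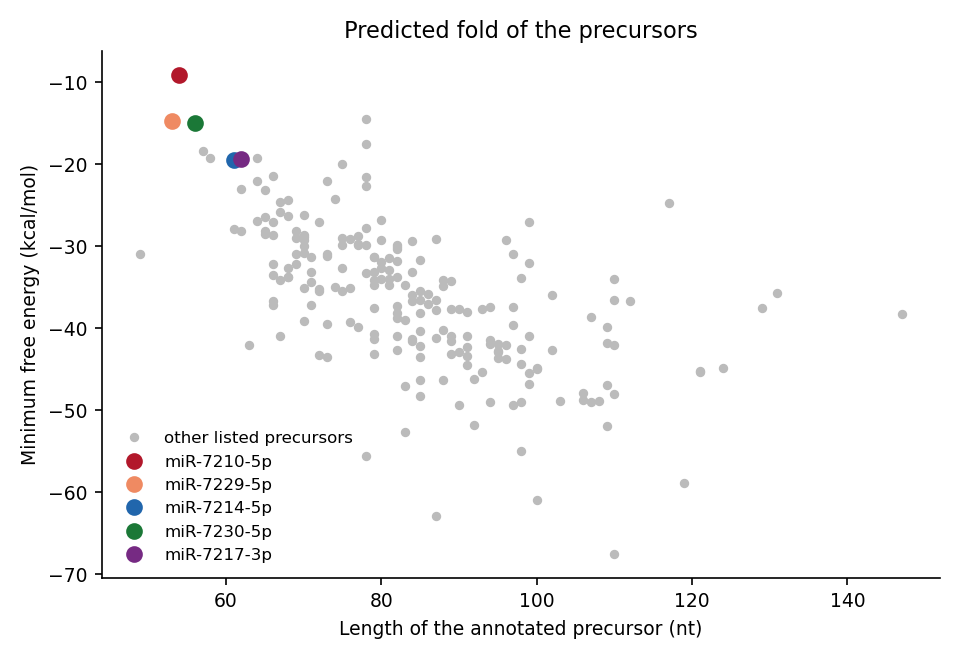
Predicted minimum free energy (kcal/mol) against the length of the annotated precursor (nt), 1 point per precursor, for the 5 members (coloured) and 206 other listed precursors (grey). The members lie at 53 to 62 nt and -19.5 to -9.1 kcal/mol, at the short and weakly folded end.

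The precursors lay in 3 regions of the genome (GRCm38, the assembly of the mm10 build named by the authors). Mir7210 is at chr14:24088877-24088930 on the plus strand and overlapped no other annotated gene, the nearest being the lincRNA Gm31392 on the opposite strand, 12968 bases away. Mir7229 is at chr5:113324493-113324545 on the minus strand, opposite to an exon of Gm43353, an unconfirmed transcript model. Mir7230 is at chr5:113337590-113337645 on the same strand, 13044 bases away, and overlapped no gene. Mir7214 is at chr17:27317035-27317095 on the minus strand, in an intron of the lincRNA Gm49793, and Mir7217 is at chr17:27355738-27355799 on the plus strand, in an exon of the lincRNA Gm49794, 38642 bases from Mir7214. The precursors Mir7216 and Mir7218, neither listed in the table, lie within 50 kb of both. The mature sequence of miR-7217-3p was also found on the sense strand of Gm49794, and that of miR-7229-5p on the antisense strand of Gm43353, among annotated transcripts. No other annotated transcript held 1 of the 4 mature sequences searched, apart from their own precursors, and miR-7214-5p was not searched. Matches elsewhere in the genome were not searched here.

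**Figure D5:**
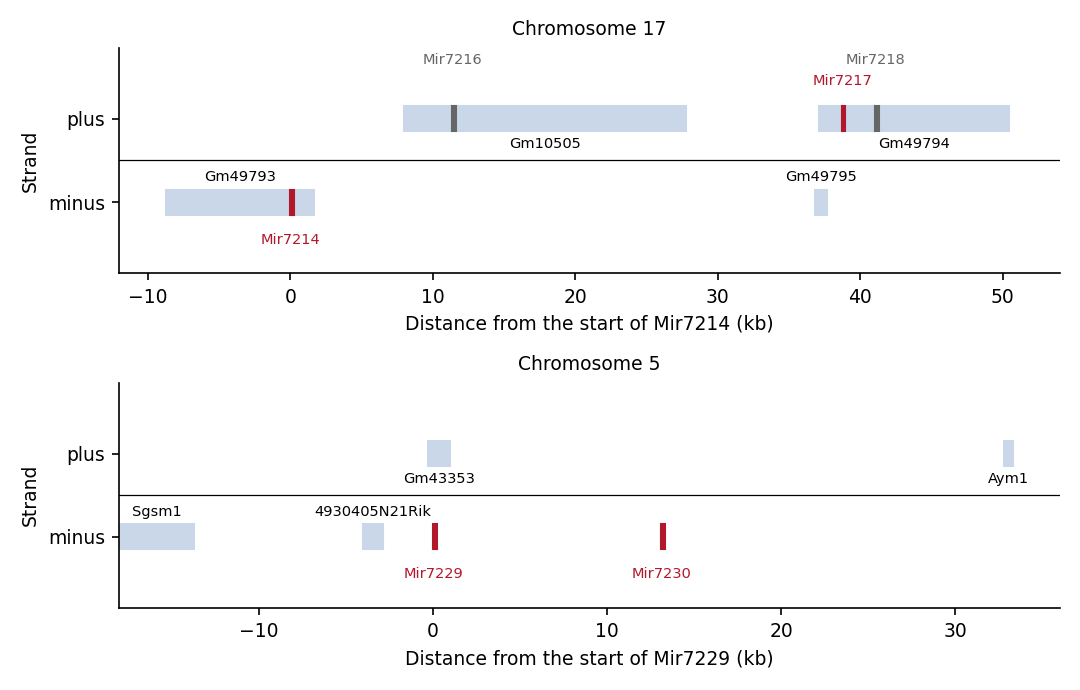
Annotated genes around the members on chromosomes 17 and 5, drawn to scale in kb from the start of Mir7214 and of Mir7229, with the plus strand above and the minus strand below the line (precursors under 0.25 kb are drawn at that width). Listed precursors are red, precursors not listed dark grey and other genes light blue, and Mir7217 and Mir7218 lie inside Gm49794.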

How the data were processed

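Small RNAs below 100 bp from 7 libraries of mouse testis, 1 per condition, were analysed. The authors trimmed the reads, checked them with FastQC, aligned them to mm10 using Bowtie and matched them one after another with miRBase, piRBase and Ensembl's non-coding RNAs, so a read that fitted a miRBase entry was counted there first. The submitters' processing notes also name HTSeq and DESeq, and the versions are not given in the sources used here. The deposited signal per miRNA is a number of reads multiplied by 1 factor per library; how the factors were made is not given in the sources used here. The 7 sample tables were identical to the table of the series.

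The worth of 1 read in each library was estimated from the low values, and 100% of values below 10000 reads were whole to within 0.1 read. The estimate was tested on simulated data. The design assumed reads, and levels are CPM over these recovered reads. Values at 0 were set to 5 reads for ratios. No ratio is given where both sides were at 5 reads or fewer. Counting intervals are exact Poisson (levels) or exact conditional binomial (ratios), at 95%; reads carry no molecular identifiers. No count model or test was possible without replicates, and a call means a 2-fold ratio.

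Members and lists were chosen with earlier results of these data known. The text names all members, the 3 miRNAs most like each, 3 references (miR-34c-5p, miR-449a-5p and miR-375-3p), miRNAs sharing a seed or lying within 50 kb, and a male germ cell list. Positions came from GENCODE and sequences from RefSeq (GRCm38.p6), which matched 288 of 331 mature miRNAs. Lists of markers of other cell types gave these ranges of summed CPM over the libraries: gonadal somatic cells 93.7 to 234, mesenchymal and smooth muscle cells 103835 to 258199, blood cells 5.54 to 31.9 (2 of 4 listed) and endothelium 124 to 405. The mesenchymal, blood and endothelial sums were highest in TAD, as were the germ cell markers, and the gonadal somatic sum was highest in T10. The mesenchymal sum was also lower in both prepuberal libraries than in all cultured ones. Markers within a list could go opposite ways in TAD over prepuberal testis. The log2 ratio was 1.05 for miR-143-3p and -0.24 for miR-145a-5p (mesenchymal), and 1.70 for miR-142a-5p and -1.10 for miR-451a (blood). It was 1.73 for miR-202-3p and -0.65 for miR-202-5p (gonadal somatic), and 1.18 for miR-126a-5p and 0.89 for miR-126a-3p (endothelium). Folds used RNAfold 2.7.2, and computations scipy 1.17.1, pandas 2.3.3, numpy 2.4.6 and matplotlib 3.10.9 under Python 3.11.15. Alternatives were the scaling, the value for 0, the threshold, a filter at a mean of 100 CPM and leaving out T6 or T10.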

Additional observations from a re-analysis of the deposited data

Results flagged for a closer look

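miR-7210-5p was higher with AlbuMAX I in testes cultured from 6.5 dpp and lower in those cultured from 10.5 dpp. Its log2 ratio of AlbuMAX I over KSR was 1.25 at 6.5 dpp and -0.34 at 10.5 dpp, a difference of 1.59. Both intervals for counting error lay away from 0 under each of 4 scalings compared. Part of the difference was shared: the median over all miRNAs was 0.64 at 6.5 dpp and -0.02 at 10.5 dpp. By median-of-ratios size factors the log2 ratios of miR-7210-5p were closer together, at 0.69 and -0.32. With 1 library per condition the difference was not tested. The references miR-34c-5p, at 1.22 and -0.14, and miR-375-3p, at 1.12 and -0.50, had the same signs. The third reference, miR-449a-5p, did not: it was at 1.85 and 0.10 (0.003 to 0.20).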

How the results depend on the processing

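With miRNAs of a mean of at least 100 CPM only, 2 members remain to be counted. Of these, 2 were at least 2-fold higher in TAD over prepuberal testis, against 19.8% of all 121 such miRNAs. The same held in each of the 4 comparisons of cultured testis with its starting age (11.6% to 14.0% of all). It also held in TAD over the highest cultured library (22.3%). miR-7229-5p, with a mean of 117 CPM, passed the filter only through its 640 CPM in TAD. Its highest level elsewhere was 63.2 CPM, in T10-12K, so its higher level in TAD was set by the filter and supports nothing. With this filter 0 members were lower with AlbuMAX I at 6.5 dpp (2.48% of all). Taking reads at equal depth, 3 of 5 were higher in TAD than in the highest cultured library (13 of 325 miRNAs), 3 were higher with AlbuMAX I at 6.5 dpp (34.0% of all) and 2 at 10.5 dpp (11.4%). At 6.5 dpp, 0 members were higher with AlbuMAX I for values as deposited, median-of-ratios size factors, the trimmed mean of M-values and a 4-fold threshold (19.9%, 11.2%, 13.4% and 4.98% of all), 2 with 3 reads in place of 0 (27.7%), and 0 were lower at 4-fold. The adult over prepuberal log2 ratio of miR-7210-5p was 10.03 at equal depth and 12.34 as deposited, and between 12.35 and 14.55 with T6 or T10 left out. The bound for miR-7229-5p was 7.70 at equal depth, 10.04 as deposited, 10.93 with median-of-ratios size factors, 10.41 without miR-10b-5p and 11.48 with 3 reads in place of 0. The median of all miRNAs in that comparison was -3.45 at equal depth, -1.12 as deposited, -0.23 with median-of-ratios size factors and -0.74 without miR-10b-5p, and the count of all miRNAs past 2-fold was 17, 36, 78 and 56 against 71. No ratio whose counting interval lay away from 0 changed sign under these alternatives, whereas that of miR-7229-5p for the media at 10.5 dpp, whose interval spanned 0, went from -0.18 to 0.08 at equal depth. The order of the groups held for 4 of 5 members under the 5 other scalings, chosen after the data had been seen, and for 2.72% to 8.16% of all miRNAs. For miR-7230-5p it rests under each scaling on 5 reads in T6-12A against 0 before culture. By Spearman rho, at most 1 of the 3 most similar miRNAs was shared for 4 members. The depth of TAD and the lack of replicates limit the rare members most.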
